A study of Mus musculus with 29 samples.

Results

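The genes described here are 9 genes of the mouse MHC class II antigen presentation pathway, H2-Eb1, H2-Aa, H2-Ab1, H2-DMa, H2-DMb1, H2-DMb2, H2-Oa, Cd74 and Ciita, among 14602 genes measured on 29 arrays of mouse lung tumours and normal lung. They were chosen by the high values of H2-Eb1 and H2-DMb2 in TI-KM against TI-K primary tumours, and by the pathway the other 7 share with that pair. In comparisons that include TI-K arrays the members' values and their counts of calls are therefore a description, with no p-value for a member. All 20 probe sets annotated to the 9 genes were taken, and all 20 passed the filter on low signals. H2-DMb1 had no probe set of its own, since its 2 probe sets also name H2-DMb2, so gene-level values exist for 8 of the 9.

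All mice were on a mixed 129/Bl6 background and carried CCSP-rtTA, in which the promoter of a club cell secretory protein drives the reverse tetracycline transactivator in lung epithelium. TI-KM mice carried in addition TRE-KrasV12, an oncogene under a promoter that this transactivator switches on with doxycycline, together with TRE-Mad2, which encodes a spindle checkpoint protein, and TI-K mice carried TRE-KrasV12 alone. The arrays covered 6 recurrent TI-KM tumours, 14 TI-KM primary tumours, 8 TI-K primary tumours and 1 normal lung with CCSP-rtTA alone. The TI-K titles hold numbers above 6000 in 5 tumours and below 6000 in 3, a split the labels do not explain, and TI-KM primaries 1 and 2 share title number 76. Ages and doxycycline schedules are not given in the sources used here.

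MHC class II molecules are pairs of an alpha and a beta chain that display peptides from the endosome to CD4+ T cells. Cd74, the invariant chain, blocks the peptide groove until H2-DM exchanges its last fragment for a peptide, and H2-O restrains H2-DM. Ciita, the class II transactivator, switches the genes on together through a shared promoter module whose X and Y boxes bind RFX, CREB and NF-Y proteins. Dendritic cells, B cells and macrophages are the classical carriers of class II, and alveolar type II cells of the lung also express it.

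Promoters are shown for 4 members to set the pair with the widest range, H2-Eb1 and H2-DMb2, beside the near copy H2-DMb1 and the alpha chain H2-Aa. Each window runs from 250 bases before the annotated start to 50 bases after it, from RefSeq on GRCm38.p6. Capitals mark matches to a Y box core (TGATTGG), an X box core (CNGATGATG) or a palindromic cyclic AMP response element (TGACGTCA), searched on both strands with no overlap between motifs; all matches lay on the forward strand of the gene.
H2-Eb1 (chr17:34305617-34305916, forward strand): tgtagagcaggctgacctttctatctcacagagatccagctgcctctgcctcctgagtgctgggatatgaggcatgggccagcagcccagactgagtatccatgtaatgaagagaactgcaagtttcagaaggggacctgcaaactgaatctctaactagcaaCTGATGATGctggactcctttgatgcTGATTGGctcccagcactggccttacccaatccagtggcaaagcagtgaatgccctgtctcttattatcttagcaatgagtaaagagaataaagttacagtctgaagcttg
H2-DMb2 (chr17:34144999-34145298, forward strand): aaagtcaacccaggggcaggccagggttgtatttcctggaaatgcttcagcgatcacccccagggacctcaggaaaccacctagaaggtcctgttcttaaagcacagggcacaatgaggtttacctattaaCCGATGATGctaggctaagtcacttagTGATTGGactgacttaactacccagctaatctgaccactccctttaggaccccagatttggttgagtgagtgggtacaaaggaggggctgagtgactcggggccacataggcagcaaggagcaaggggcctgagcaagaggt
H2-DMb1 (chr17:34152941-34153240, forward strand): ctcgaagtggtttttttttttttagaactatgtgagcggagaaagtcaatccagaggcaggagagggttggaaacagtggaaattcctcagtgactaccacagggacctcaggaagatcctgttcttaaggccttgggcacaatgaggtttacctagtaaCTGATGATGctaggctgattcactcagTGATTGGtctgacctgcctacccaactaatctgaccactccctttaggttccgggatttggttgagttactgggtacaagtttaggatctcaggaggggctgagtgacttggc
H2-Aa (chr17:34287774-34288073, reverse strand): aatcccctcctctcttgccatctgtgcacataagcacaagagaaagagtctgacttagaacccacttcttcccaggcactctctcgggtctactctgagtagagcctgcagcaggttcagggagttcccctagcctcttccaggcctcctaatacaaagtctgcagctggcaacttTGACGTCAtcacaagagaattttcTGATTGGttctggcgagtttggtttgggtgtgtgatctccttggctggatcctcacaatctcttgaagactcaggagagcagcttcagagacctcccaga

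The motif letters were chosen after these promoters had been read. H2-Eb1, H2-DMb2 and H2-DMb1 each held both cores, with the X core ahead of the Y core. The Y core began 61 bases before the start in H2-Eb1 (offset -61), 92 before in H2-DMb2 (offset -92) and 63 before in H2-DMb1 (offset -63). H2-Aa held the Y core at offset -50 and the cyclic AMP element at offset -74, and H2-Oa held the Y core at offset -45. Among 32851 promoter windows of the same length, 7.82% held the Y core, 0.956% the X core, 0.0639% both and 1.79% the cyclic AMP element. Windows of 6 of the 9 members were used, and neither H2-DMa window held any of the 3 motifs. Windows on chromosome 18, where Cd74 lies, were left out when members were searched, so Cd74 has no motif result.

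Every array had the same trimmed mean signal, so arrays were compared as deposited. The 18S ribosomal RNA signal at its 3' end split the arrays inside groups. It exceeded 12000 in 11 of 29 arrays, namely TI-KM primaries 1 to 6, recurrences 1 to 4 and the normal lung. The summed signal of 9 alveolar type II markers, measured of 10 listed, was higher in every tumour than in the normal lung. It spanned 72162 to 146950 in recurrences, 101787 to 155755 in TI-KM primaries, 118974 to 173043 in TI-K primaries, against 50102 in the normal lung. Not every marker followed the sum: Sftpc was 28262 in the normal lung, above all recurrences (10460 to 20649), and Nkx2-1, at 64.9, lay inside the tumour range. In bulk tissue, fewer cells of a type and less RNA per cell cannot be told apart.

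The beta chain gene H2-Eb1 split the TI-K sets widely. Its probe set (1417025_at) had a lowest signal of 2944, a median of 7347 and a highest of 16435 in recurrences, and 8579, 14758 and 17073 in TI-KM primaries. The TI-K primaries with title numbers above 6000 had 404, 902, 763, 659 and 712, whereas those below 6000 had 14612, 10074 and 14810, and the normal lung had 407. The 5 TI-K arrays above 6000 and the normal lung lay below all 23 other arrays, and the 3 other TI-K arrays lay inside the TI-KM range. In order of mean level, TI-K below 6000, TI-KM primaries and recurrences overlapped from neighbour to neighbour, and TI-K above 6000 overlapped with the normal lung only.

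H2-DMb2, a beta chain of the peptide exchange factor H2-DM, followed the same split on 2 of its 3 probe sets. On 1443687_x_at the lowest, median and highest signals were 165, 1556 and 2370 in recurrences and 596, 1638 and 6205 in TI-KM primaries. The TI-K arrays above 6000 had 62.1, 120, 77.6, 119 and 123, those below 6000 had 2117, 1231 and 3160, and the normal lung had 16.8. On 1443686_at the TI-K arrays above 6000 spanned 32.8 to 56.1, against 995 to 1940 in those below 6000 and 6.74 in the normal lung. On both probe sets the TI-K arrays above 6000 lay below every other tumour and above the normal lung.

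The third probe set of H2-DMb2 (1419744_at) spanned 39.0 to 120 in TI-K above 6000, 175 to 265 in TI-K below 6000, and 138 in the normal lung. There the TI-K sets again did not overlap, but the normal lung lay above the TI-K arrays above 6000. The 2 probe sets shared with H2-DMb1 gave a smaller gap: 1418638_at spanned 611 to 761 above 6000 and 1008 to 1196 below 6000, and 1449580_s_at spanned 932 to 1519 and 1871 to 2111 in the same order. Signals of different probe sets are not on 1 scale, so only differences within a probe set are compared.

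**Figure D1:**
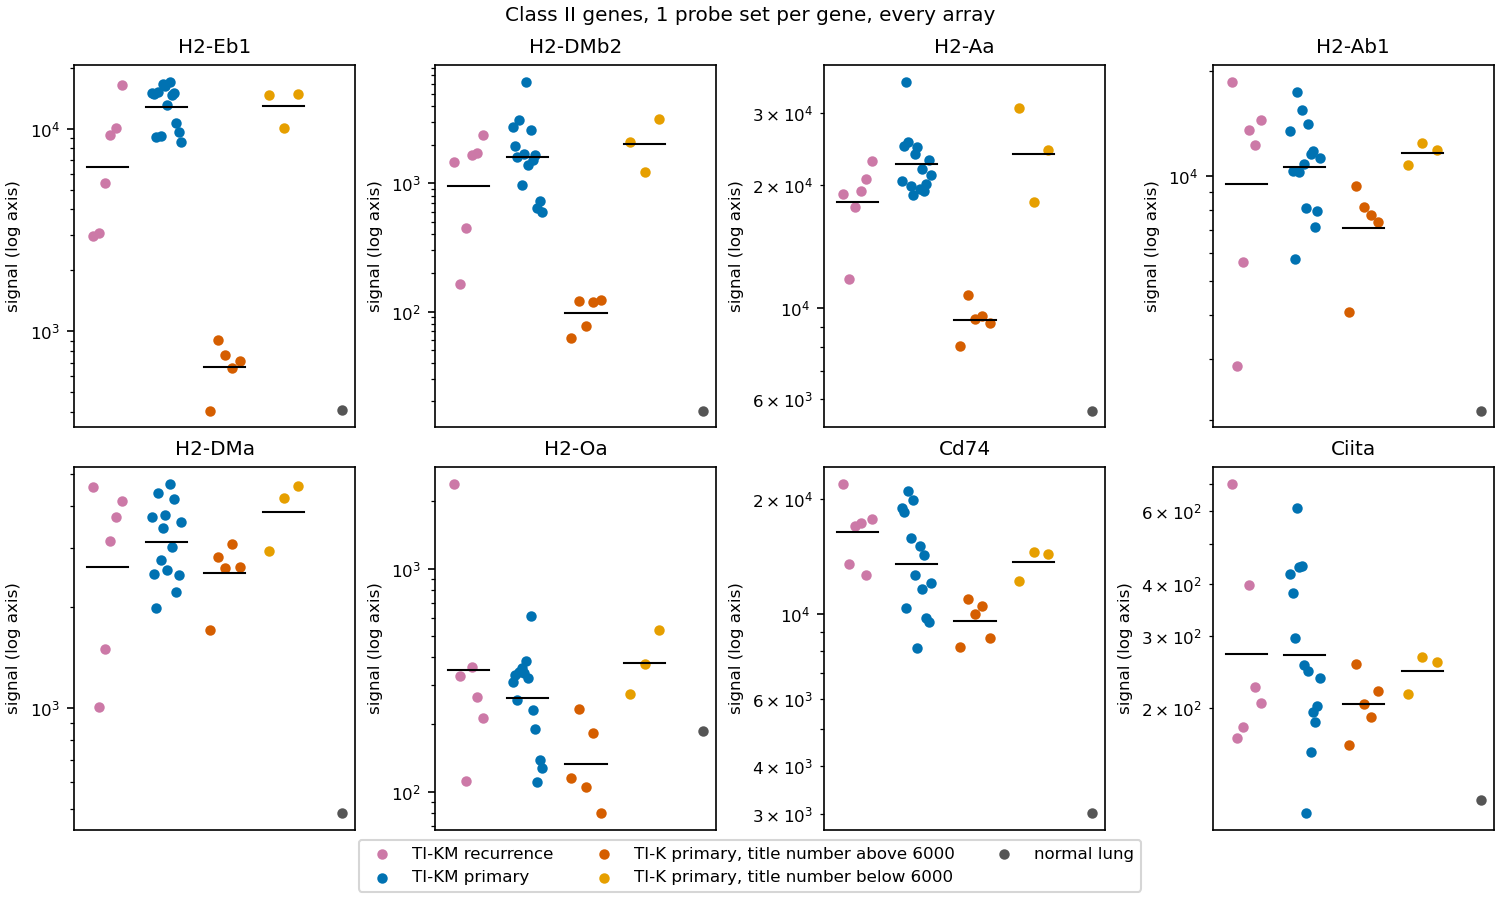
Deposited signal (log axis) of 8 class II genes, 1 probe set per gene, with a point per array and a bar at the geometric mean, for recurrences (n = 6), TI-KM primaries (14), TI-K primaries above 6000 (5) and below 6000 (3) and normal lung (1). On the probe sets shown, H2-Eb1, H2-DMb2 and H2-Aa set the 5 TI-K arrays above 6000 below every other tumour. H2-Ab1, H2-DMa, H2-Oa, Cd74 and Ciita overlap there between TI-KM primaries and those 5 arrays.

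The alpha chain gene H2-Aa gave different answers on its 4 probe sets. On 1435290_x_at the lowest, median and highest signals were 11789, 19174 and 22926 in recurrences and 18909, 21501 and 35758 in TI-KM primaries. The TI-K arrays above 6000 had 8051, 10760, 9419, 9550 and 9195, those below 6000 had 30772, 18146 and 24334, and the normal lung had 5595. The TI-K arrays above 6000 lay below all other tumours and above the normal lung.

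H2-Aa probe set 1443783_x_at had a wider gap, with 356 to 858 above 6000 and 5133 to 9100 below 6000, beside 304 in the normal lung. Its probe set 1452431_s_at ran the other way on average, with 9179 to 13080 above 6000 and 4741 to 15406 below 6000, and these ranges overlapped. H2-Aa therefore has no single direction across its probe sets: 3 were lower and 1 higher in TI-K above 6000.

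H2-Ab1 encodes the beta chain that pairs with the H2-Aa product. On 1450648_s_at its lowest, median and highest signals were 2862, 12903 and 18613 in recurrences and 5787, 11023 and 17422 in TI-KM primaries. The TI-K arrays above 6000 had 4083, 9390, 8163, 7752 and 7405, those below 6000 had 10721, 12400 and 11832, and the normal lung had 2124. The TI-K sets did not overlap with each other, yet both overlapped with the TI-KM primaries.

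H2-DMa, the alpha chain of H2-DM, spanned 1709 to 3086 in TI-K above 6000 and 2941 to 4615 in TI-K below 6000 on 1422527_at, with 485 in the normal lung. Cd74 spanned 8219 to 10949 above 6000 and 12222 to 14588 below 6000, with 3009 in the normal lung. On these probe sets the H2-DMa ranges overlapped and the Cd74 ranges did not. The other H2-DMa probe set, 1459872_x_at, showed no overlap, with 342 to 655 above 6000 and 810 to 1482 below 6000. H2-Oa, the alpha chain of H2-O, had 115, 235, 105, 182 and 80.0 above 6000 and 273, 372 and 528 below 6000, and the normal lung, at 187, lay inside the range above 6000. Ciita had 163, 256, 205, 191 and 221 above 6000 and 216, 266 and 259 below 6000 on 1421210_at, with overlapping ranges and 120 in the normal lung.

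In the TI-KM tumours these 4 genes spread more widely. H2-DMa spanned 1005 to 4571 (median 3444) in recurrences and 1986 to 4670 (median 3237) in TI-KM primaries, and Cd74 spanned 12693 to 21944 (median 17182) and 8153 to 21048 (median 13466) in the same order. H2-Oa spanned 112 to 2396 (median 298) in recurrences and 111 to 613 (median 316) in TI-KM primaries, and Ciita 170 to 699.3 (median 216) and 112 to 612 (median 250). Recurrences and TI-KM primaries overlapped for all 4 genes, and recurrence 1 was the highest of the 6 recurrences for each.

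Within the TI-K primaries, the question was whether the class II family as a whole separated by title number or H2-Eb1 and H2-DMb2 alone. On the brightest probe set of each gene, all 8 measured members were lower in the tumours above 6000 than in those below 6000. Their median log2 difference was -1.03, beside -0.02 over all genes. H2-Eb1 was 18.9-fold lower (log2 difference -4.24 ± 0.38, SE) and H2-DMb2 17.4-fold lower (-4.12 ± 0.66); they ranked at places 3 and 5 of 14602 genes from the low end. H2-Oa (-1.37 ± 0.57), H2-Aa (-1.35 ± 0.20), H2-Ab1 (-0.71 ± 0.41), H2-DMa (-0.61 ± 0.36), Cd74 (-0.51 ± 0.25) and Ciita (-0.24 ± 0.41) followed. With the mean of all probe sets of a gene in place of the brightest, H2-DMb2 was at -3.23 and Ciita at -0.02. At a limma adjusted p below 0.05, 3 of 8 members were called lower, where 3.18% of all genes were called in either direction. By probe set, 18 of 20 were lower and 2 higher, the latter H2-Aa 1452431_s_at and Ciita 1421211_a_at. Of the 20, 7 were called, all lower, beside 6.31% of all probe sets. H2-Eb1 and H2-DMb2 were selected on these arrays, so the counts describe the selection and nothing is read from them.

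**Figure D2:**
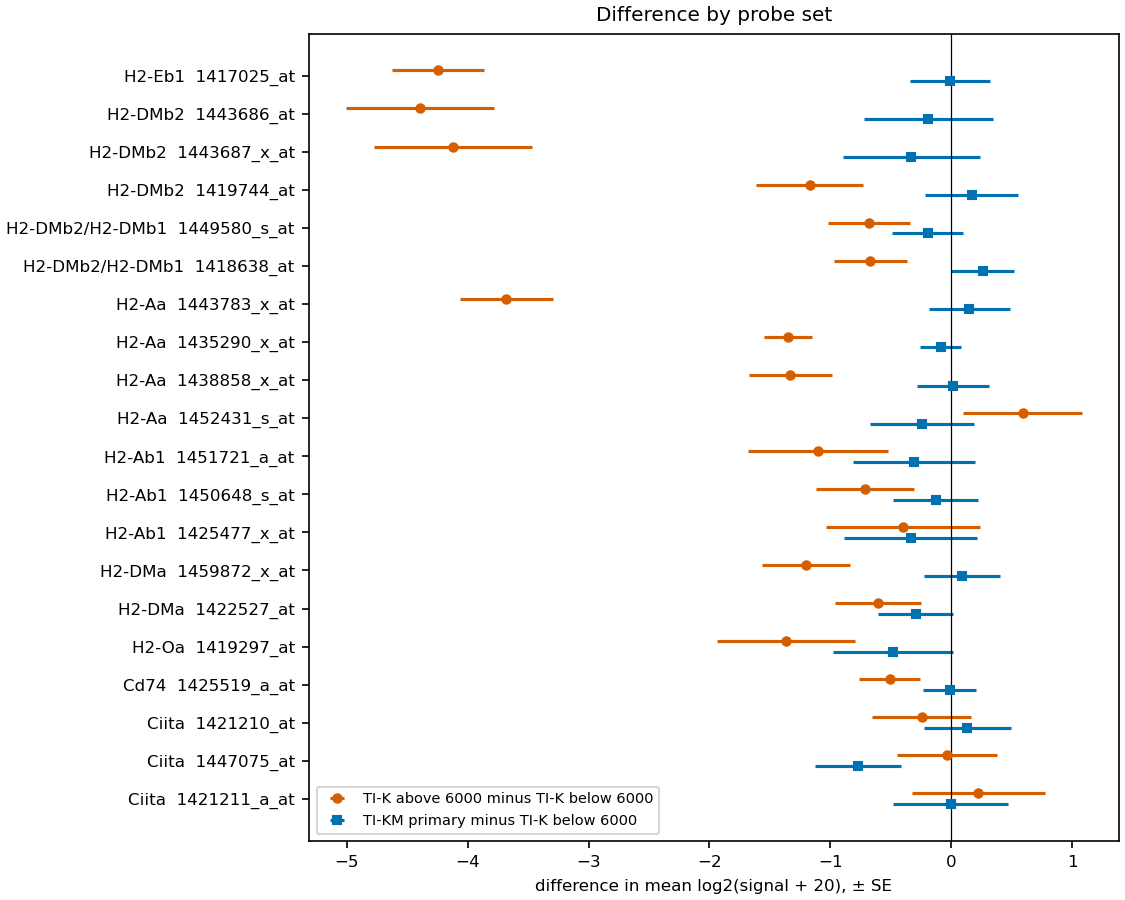
Difference in mean log2(signal + 20) with its standard error for the 20 class II probe sets, for TI-K above 6000 minus TI-K below 6000 (circles) and TI-KM primary minus TI-K below 6000 (squares). H2-Eb1, a pair of H2-DMb2 probe sets and H2-Aa 1443783_x_at lie between -4.39 and -3.68 in the first comparison, whereas the squares lie between -0.77 and 0.26.

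A shift of the family was separated from one of the pair by taking, per array, the mean log2(signal + 20) of the 6 other measured genes, and the mean of H2-Eb1 and H2-DMb2 minus it. The family mean differed by -0.80 between TI-K above 6000 and TI-K below 6000, and the excess of the pair by a further -3.38. The family mean spanned 10.56 to 11.27 above 6000 and 11.58 to 11.89 below 6000, so the sets did not overlap on it. The excess spanned -3.01 to -2.50 above 6000 and 0.06 to 0.87 below 6000. Neither measure overlapped between the sets. The pair was selected for its values in these arrays, so its excess here is a description of that selection.

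Across the other groups the excess spanned -1.59 to 0.92 in recurrences and -0.24 to 1.60 in TI-KM primaries, and was -2.85 in the normal lung. The excess of the normal lung lay inside the range of TI-K above 6000, but its parts did not: H2-Eb1 minus the family mean was -1.08 in the normal lung, above all 5, and H2-DMb2 minus it was -4.62, below all 5. The H2-DMb2 signal of the normal lung, 16.8, is below the offset of 20, so that part depends on the offset. The normal lung is 1 array, and its strain and CCSP-rtTA are labelled like those of the tumours.

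**Figure D3:**
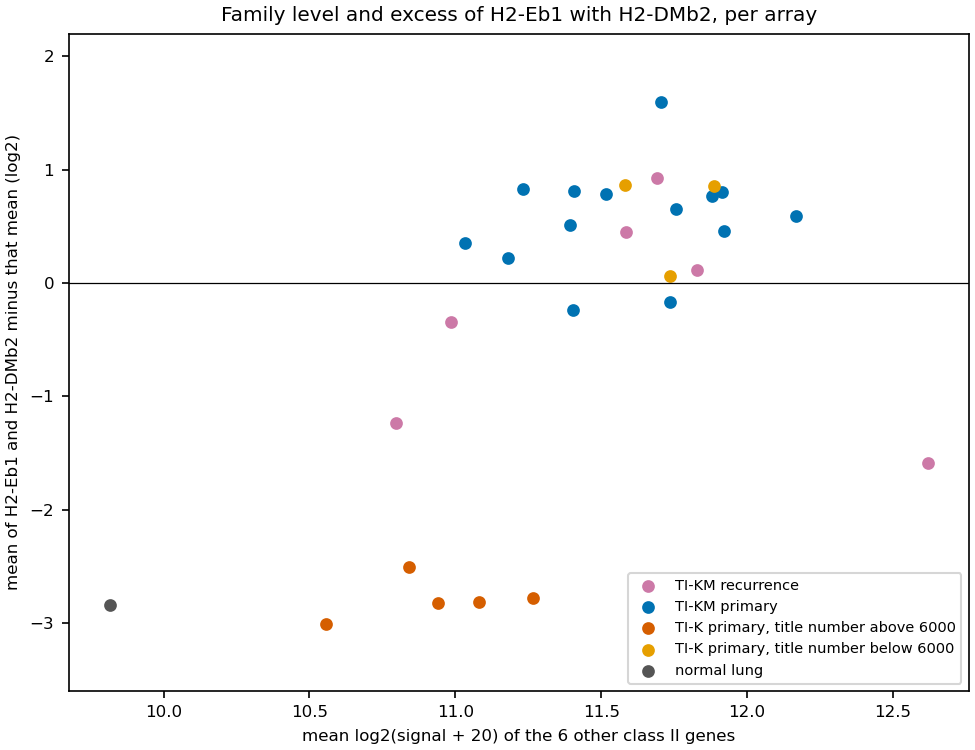
Each array's mean log2(signal + 20) of the 6 other class II genes (horizontal) against the excess of H2-Eb1 and H2-DMb2 over that mean (vertical), coloured by group. The 5 TI-K arrays above 6000 and the normal lung sit between -3.01 and -2.50 on the vertical axis, and the other 23 arrays between -1.59 and 1.60.

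Other genes of the pathway were compared between the same TI-K sets by lists. Over all genes 3.18% were called, so a short list without a call is not read as unchanged. None of 7 class II transactivators was called (median 0.18), and the brightest of them were Creb1 (0.18), which binds the X box region, and Nfyc (-0.16), a subunit of NF-Y. None of 6 antigen processing genes was called (median -0.14), with Ctss, a protease that trims the invariant chain, at -0.33 and the lysosomal protease Ctsb at -0.21. None of 3 costimulation genes was called (median -0.15), with Cd86 at -0.15 and Cd40 at 0.48. Of 9 MHC class I genes 2 were called lower (median -0.72), namely the peptide loading genes Tap1 (-1.46) and Tapbp (-1.36), and the brightest of the list were B2m (-0.65) and H2-D1 (-0.08). None of 12 measured interferon gamma pathway genes was called (median -0.48), and their summed signal spanned 11596 to 16022 above 6000 and 12487 to 38988 below 6000. The brightest of them were Gbp2 (-1.80), an interferon-induced GTPase, and the kinase gene Jak2 (0.27). H2-Eb2, a beta chain gene beside H2-Eb1, was at -1.09, H2-Ea, whose product pairs with that of H2-Eb1, at 0.86, and H2-Ob at 0.28; none of these 3 was called. As background, mice of the H-2b haplotype, such as 129 and Bl6, do not display H2-E molecules because H2-Ea is defective.

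Markers of cells that carry class II were set beside the split. None of 9 dendritic, 7 B cell, 9 macrophage, 6 T cell and 4 general leukocyte markers was called between the TI-K sets, with medians of 0.35, 0.12, -0.19, -0.39 and -0.48 in that order. Over all genes 3.18% were called, a share at which lists this short hold few calls, so nothing is read from their absence. The summed dendritic markers spanned 2251 to 4821 in TI-K above 6000 and 2328 to 4400 in TI-K below 6000. The B cell sums spanned 6428 to 17634 and 2522 to 5829, and the leukocyte sums 12131 to 22542 and 21981 to 30975, in the same order. The macrophage sums spanned 27014 to 48503 and 37774 to 54956, and the T cell sums 289 to 769 and 450 to 832. The dendritic, leukocyte, macrophage and T cell ranges overlapped, and the B cell sums were higher above 6000 in every array. Ighm made up most of the B cell sums above 6000 (4719 to 16103). Of the other B cell markers, Cd79a (0.91), Ms4a1 (0.57) and Blk (0.12) were also higher there, and Cd22 (-1.04), Pax5 (-0.74) and Cd79b (-0.36) were lower. Their part in the class II values was not tested.

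Most of the class II genes lie together on chromosome 17, so the 20 measured genes to each side of H2-Eb1 were also described, a step added after the values were seen. Of the 35 that are no members 1 was called, Tap1 (-1.46), a peptide transporter of MHC class I, and 3.79% of the genes measured on chromosome 17 were called. The 35 had a median of -0.20 and a range of -1.46 to 1.01. On the brightest probe set of each gene, H2-Eb1 and H2-DMb2 were the only genes of the stretch below -2. The 7 measured genes between them, H2-Ab1, H2-Aa, H2-Ob, Tap2, Psmb8, Tap1 and Psmb9, lay between -1.46 and 0.28. That depends on the probe set taken: H2-Aa 1443783_x_at, not used here, spanned 356 to 858 above 6000 and 5133 to 9100 below 6000.

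**Figure D4:**
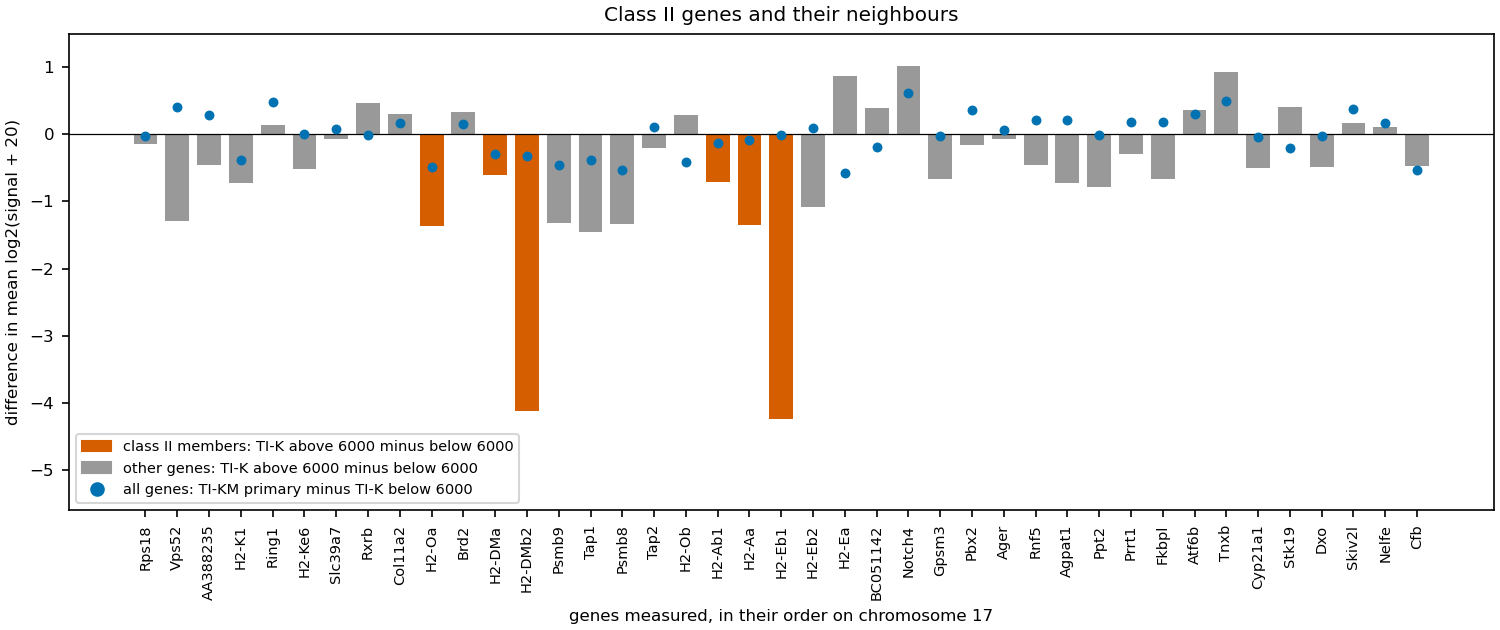
Difference in mean log2(signal + 20) for TI-K above 6000 minus below 6000 (bars; class II members in orange, other genes in grey) and for TI-KM primary minus TI-K below 6000 (points), for H2-Eb1 and the 20 measured genes on each side in their order on chromosome 17. Each gene is shown by its brightest probe set. Among these the bars of H2-Eb1 (-4.24) and H2-DMb2 (-4.12) stand apart, and genes between them lie between -1.46 and 0.28.

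TI-KM primaries against TI-K primaries, the comparison of Mad2 overexpression on the oncogene background, gave H2-Eb1 6.22-fold higher (log2 difference 2.64 ± 0.52) and H2-DMb2 4.74-fold higher (2.25 ± 0.60). H2-Aa was at 0.76 ± 0.19, and the 5 others lay between 0.08 and 0.37, on the brightest probe set of each gene. By probe set, 16 of 20 were higher and 4 lower, the lowest at -0.75. H2-Aa 1452431_s_at was among the lower ones. Of the 8 members 3 were called higher, where 7.99% of all genes were called in either direction; this is the contrast that chose the pair, so nothing is read from the count. The TI-K arrays of this comparison are the 5 above 6000 and the 3 below 6000 together.

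Set against the 3 TI-K arrays below 6000 alone, TI-KM primaries differed little. H2-Eb1 was at -0.01 ± 0.33, H2-DMb2 at -0.33 ± 0.57, and all 8 members lay between -0.48 and 0.13 with a median of -0.11, beside 0.08 over all genes. None of the 8 was called, and 0% of all 14602 genes was; 1063 genes and 0 members had an unadjusted p below 0.05. H2-Eb1 differed by 0.16 between TI-KM and TI-K when 3 sets of arrays, made from the 18S signal and the TI-K title number, entered limma as a block. Within the arrays that were neither high in 18S nor above 6000 the H2-Eb1 difference was -0.02, and that of H2-DMb2 was -0.50. All 5 tumours above 6000 are TI-K, so no TI-KM tumour stands beside them in their set.

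Recurrences against TI-KM primaries is the comparison that did not choose the genes, and it asks whether class II expression differs in tumours that returned. None of the 8 members was called, where 0.26% of all genes were (38 genes, and 1809 at an unadjusted p below 0.05). No member reached an unadjusted p below 0.05 at the gene level, and 2 of 20 probe sets did, with 0 called after adjustment beside 0.442% of all probe sets. H2-Eb1 was at -0.98 ± 0.57 (limma adjusted p = 0.498) and H2-DMb2 at -0.73 ± 0.66 (limma adjusted p = 0.669). The other 6 lay between -0.30 (H2-Aa) and 0.40 (H2-Oa), with limma adjusted p-values between 0.54 and 0.994.

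The spread shared by this model includes the wide TI-K group. With the TI-K tumours split by title number, H2-Eb1 kept its difference of -0.98 with an SE of 0.26 and a limma adjusted p of 0.0837, still not called; over 36 settings, arrays left out included, the adjusted p of H2-Eb1 ranged from 0.0837 to 0.995. The H2-Eb1 difference was -1.48 (limma adjusted p = 0.254) among the high-18S arrays, with recurrences 1 to 4 and TI-KM primaries 1 to 6, and 0.01 (limma adjusted p = 0.995) among the remaining 2 recurrences and 8 TI-KM primaries. H2-DMb2 was at -1.48 and 0.50 in the same order. The difference between those sets was not tested. The log2 ratio of 3' to 5' control signals averaged 1.32 ± 0.45 in recurrences and 2.16 ± 0.67 in TI-KM primaries (SD, n = 6 and 14), and with it as a covariate H2-Eb1 was at -0.49 (limma adjusted p = 0.892) and H2-DMb2 at -0.01 (limma adjusted p = 0.999). P-values measure the spread between these tumours, and nothing in the labels says more of their origin.

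The 6 recurrences were uneven from gene to gene. Recurrence 1 had the lowest H2-Eb1 (2944) and the highest H2-Ab1 (18613), H2-Oa (2396), Cd74 (21944) and Ciita (699.3) of the 6. Recurrence 2 had low H2-Eb1 (3072) together with the lowest H2-DMb2 (165), H2-Aa (11789), H2-Ab1 (2862) and H2-DMa (1005). Recurrence 6 had the highest H2-Eb1 (16435), with H2-Ab1 at 14499. The excess of the pair was lowest of the 6 in recurrence 1, at -1.59, and next lowest in recurrence 2, at -1.23. The family mean was 12.62 in recurrence 1, the highest of the 6, and 10.80 in recurrence 2, the lowest.

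Several marker sums stood apart in recurrence 1. Its leukocyte sum was 60081 against 4769 to 22405 in the other 5, its T cell sum 5596 against 505 to 773, its B cell sum 36703 against 1884 to 16881, and its alveolar type II sum 72162 against 115781 to 146950. Its dendritic sum was 6569 against 1444 to 3404, whereas its macrophage sum, 34381, lay inside the 7171 to 40999 of the other 5. H2-Ob, the beta chain of H2-O, reached 2637 in it. Recurrence 1 thus stood above the other recurrences on lymphocyte and dendritic lists and below them on the alveolar list. The part of these cells in its class II values was not tested. Across the 6 recurrences as a group, no member of the dendritic, B cell, macrophage, T cell or leukocyte lists was called against TI-KM primaries, with medians of 0.20, 0.67, -0.25, 0.28 and -0.19. Only 0.26% of all genes were called there, so nothing is read from the absence of calls in these lists.

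**Figure D5:**
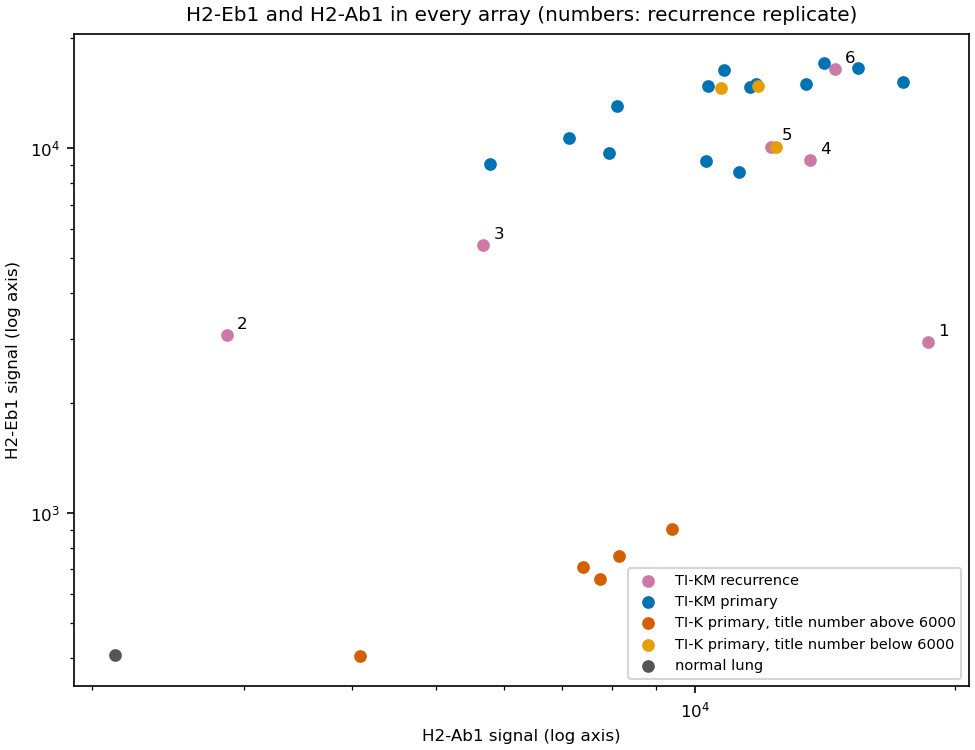
Signal of H2-Ab1 (horizontal) against H2-Eb1 (vertical), both on log axes, in every array, coloured by group, with recurrences numbered by replicate. Recurrence 1 has the highest H2-Ab1 (18613) with an H2-Eb1 of 2944, and TI-K arrays above 6000 have H2-Eb1 of 404 to 902 at H2-Ab1 of 4083 to 9390.

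The TI-KM tumours were also set against the 1 normal lung array, whose spread had to be borrowed from the tumours. Of 8 members 6 were called higher in TI-KM primaries, beside 14.9% of all genes called in either direction, and 6 in recurrences, beside 12.6%. In TI-KM primaries H2-DMb2 was at a log2 difference of 5.46 ± 1.40 (limma adjusted p = 0.00664). Its normal lung signal of 16.8 is below the 20th percentile of all signals (19.7), so the size depends on the settings, over which it ranged from 3.89 to 6.49. H2-Eb1 was 30.1-fold higher (log2 4.91 ± 1.21, limma adjusted p = 0.005) and H2-DMa 6.25-fold (2.64 ± 0.52, limma adjusted p = 0.000609). H2-Ab1 was 4.97-fold, Cd74 4.48-fold and H2-Aa 4.0-fold higher, with limma adjusted p-values between 0.000135 and 0.00707. H2-Oa (0.46 ± 0.87, limma adjusted p = 0.807) and Ciita (1.06 ± 0.58, limma adjusted p = 0.25) were not called. Among the high-18S arrays alone the call of H2-Ab1 was lost (2.42, limma adjusted p = 0.0584).

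In recurrences the same 6 genes were called. H2-Eb1 was at 3.93 ± 1.27 (limma adjusted p = 0.0376) and H2-DMb2 at 4.74 ± 1.46 (limma adjusted p = 0.0289) over the normal lung, with a range of 3.57 to 5.82 over the settings for H2-DMb2. Without recurrence 4, 5 or 6 the H2-Eb1 call was lost (limma adjusted p = 0.0515, 0.0504 and 0.0554), with differences of 3.83, 3.81 and 3.67. With arrays scaled to a common median only Cd74 and H2-DMa stayed called, with limma adjusted p-values of 0.0561 to 0.0877 for the 4 others, whose differences were 3.96 (H2-Eb1), 1.73 (H2-Aa), 2.18 (H2-Ab1) and 4.75 (H2-DMb2). H2-DMb2 also lost its call with an offset of 50 (limma adjusted p = 0.0558), H2-Ab1 with the 3'/5' ratio as a covariate (limma adjusted p = 0.0648) and among the high-18S arrays (limma adjusted p = 0.148), and H2-DMa among the high-18S arrays (limma adjusted p = 0.0603). Both comparisons share the normal lung array and are not independent. The leukocyte sum of the normal lung, 12524, lay inside the tumour range and its alveolar type II sum below it. Its macrophage sum, 13451, lay below the medians of recurrences (33188) and TI-KM primaries (35287). It was inside the ranges of both, 7171 to 40999 and 11111 to 46852. Its dendritic sum, 1603, was also below their medians (3113 and 2863). It lay inside the recurrence range (1444 to 6569) and at the low end of TI-KM primaries (1603 to 4514). Macrophage markers differed in direction: Chil3 was 506 against a TI-KM primary median of 20080, whereas Csf1r was 10141 against 6952. What these cells add to the class II difference was not tested.

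The TI-K sets stood differently to the same normal lung, given as a description. TI-K above 6000 was at 0.68 for H2-Eb1 and 1.67 for H2-DMb2 over it, and at 2.34 for H2-DMa, 1.73 for H2-Ab1 and 1.67 for Cd74. TI-K below 6000 was at 4.93 for H2-Eb1 and 5.79 for H2-DMb2. In the same 5 tumours above 6000, Ciita (0.68), H2-Aa (0.74) and H2-Oa (-0.43) also stood within 1 log2 unit of the normal lung on their brightest probe sets. Other probe sets of Ciita lay further above it, with 209 to 288 against 43.4 on 1421211_a_at and 51.8 to 128 against 21.1 on 1447075_at. So did H2-Aa, with 4627 to 15940 against 2047 on 1438858_x_at and 9179 to 13080 against 3264 on 1452431_s_at. H2-Aa 1443783_x_at stayed nearer, with 356 to 858 against 304. Recurrences were at 3.25 for H2-Eb1 and 3.06 for H2-DMb2 over TI-K above 6000, and at -0.99 and -1.06 over TI-K below 6000.

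Over the 28 tumour arrays, members were related to each other to different degrees, given as Spearman's rho and as a description, since arrays share groups and title-number sets. H2-DMb2 ranked most like H2-Eb1 (rho 0.87, and 0.78 over the 23 tumours without those above 6000), and Ciita least like it (0.26 and 0.10). H2-Ab1 and H2-DMa were alike in both sets of arrays (0.88 and 0.84). H2-Aa and H2-Ab1, the chains of 1 molecule, were at 0.25 and -0.12 on the brightest probe set of each. The 4 H2-Aa probe sets disagree between the TI-K sets, and rho was not computed for the others.

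Of genes that are no members, Zfp763 (rho 0.78), Oaz2 (0.77), Clic5 (0.76), Map1lc3a (0.76) and Vps52 (0.75) ranked most like H2-Eb1 over the 28 tumours, and were at 0.63, 0.66, 0.73, 0.58 and 0.58 over the 23. The genes most like the mean of the 6 other members were Tap1 (0.83), Psmb9 (0.80), H2-Eb2 (0.78), Ifit3 (0.77) and Psmb10 (0.77), with 0.80, 0.76, 0.66, 0.75 and 0.71 over the 23. Tap1 and Psmb9 serve MHC class I presentation, as a transporter and an immunoproteasome subunit. The 2 lists of 5 shared no gene.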

How the data were processed

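RNA from 29 samples was hybridized to Affymetrix arrays after a 2-cycle target preparation, 1 array per sample, per the labels. Each deposited value is an intensity, a linear MAS5 signal per probe set, per the submitters' processing notes, which give no version; every array had a 2% trimmed mean of 500.003. Precision is set by the number of arrays, not by depth. The deposited table holds 45101 probe sets (34945 naming 1 gene, 932 several, 9160 none and 64 controls), named by platform annotation and updated through RefSeq (GRCm38.p6).

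From these, log2(signal + 20) was computed; differences on that scale understate changes of dim genes. Probe sets above the 40th percentile of their array in at least 6 arrays were kept (31932), and the brightest represented each gene (14602). limma 3.58.1 in R 4.3.3 fitted 4 groups, or 5 with TI-K primaries split by title number, with a variance trend and Benjamini-Hochberg adjustment over all genes or probe sets; calls are at 0.05. Contrasts with TI-K arrays chose the genes, so members carry no p there and their calls are counted as a description. Spread across samples may be technical, since the labels do not describe separate animals.

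The members, lists and alternatives were chosen with earlier results of these data known. The planned 18S sets (mean of the 18S probe sets above 12000) held 28 of 29 arrays, so the 3' 18S probe set was used, an alternative added after the data were seen. The family mean was planned over 7 other members and rests on 6, as H2-DMb1 has no probe set of its own. All members are named; other genes named are the 5 most like H2-Eb1, the 5 most like the family mean, and, of each list, the 2 with the highest mean signal unless recurrences against TI-KM primaries gave calls; Tapbp and the chromosome 17 neighbours were picked after their values were seen. The fits were tested on simulated data. Figures used matplotlib.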

Additional observations from a re-analysis of the deposited data

Results flagged for a closer look

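In 60 groups of 4 to 10 arrays examined, 7 had a highest or lowest signal far from the others, and chance alone gives about 1 in 20. The 60 are not independent, since the 5 TI-K arrays above 6000 lie within the 8 TI-K primaries and several probe sets name the same gene. Most of the 7 are of 1 array, so they are not separate events to set against that rate. In the 8 TI-K primaries, and again in the 5 above 6000, TI-K primary 1 was lowest for H2-Ab1 on 1450648_s_at, at 4083. In the 5 above 6000 it was also lowest for H2-Ab1 on 1425477_x_at (1269) and 1451721_a_at (1016) and for H2-DMa on 1422527_at (1709). Among recurrences, recurrence 2 was lowest on a probe set shared by H2-DMb2 and H2-DMb1 (1418638_at, 386), and recurrence 1 was highest for H2-Oa (2396).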

How the results depend on the processing

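Alternatives were other offsets, scalings, filters, probe set choices and variance models, an average of the tumours with title number 76, the 3'/5' control ratio as a covariate, sets of arrays, fits of the compared groups alone, and each array left out. Of 118 summary values under settings other than leaving out an array, 4 moved by more than the spread or 1.5 times in a count. The others include 4 medians over members whose sign turned. Sets made from the 18S signal and the TI-K title number served as a block. With that block TI-KM over TI-K primaries, 0.34, became -0.19, and in the remaining arrays -0.26. Recurrences over TI-K primaries, 0.52, became -0.42 and -0.01 in the same order. In both settings the 5 TI-K arrays above 6000, a set of their own, do not enter these differences. With 1 array left out none of 101 summary values moved that far, but single genes lost 3 calls, all of H2-Eb1 in recurrences over the normal lung. Under other settings 9 single-gene calls were lost and 21 single-gene values moved. The number of members called in recurrences over the normal lung fell to 2 with arrays scaled to a common median, and the cause was not tested. The excess of H2-Eb1 and H2-DMb2 in TI-K above 6000 over TI-K below 6000 was -3.23 with an offset of 50, -2.91 with the mean of all probe sets and -3.55 without probe sets ending in _x_at and _s_at, which leave H2-Aa without a probe set. Leaving out each array gave 0 to 0 members called for recurrences over TI-KM primaries, 6 to 6 for TI-KM primaries and 5 to 6 for recurrences over the normal lung. The median over members spanned 0.26 to 0.47 for TI-KM over TI-K primaries, -1.11 to -0.90 for the TI-K sets, -0.21 to -0.04 for TI-KM primaries over TI-K below 6000 and 0.34 to 0.61 for recurrences over TI-K primaries. Scaling to a common median moved the median of all genes between the TI-K sets to -0.23, and the family mean difference was then -1.02, against -0.75 with quantile normalization. Between the TI-K sets no member changed sign over 18 settings for H2-Aa and 19 for the 7 others, though Ciita came to -0.02 with the mean of all its probe sets. Counts over all genes moved with scaling: 38 calls for recurrences over TI-KM primaries became 72 with quantile normalization, and 1166 for TI-KM over TI-K primaries became 1872. With a common median, 2177 and 1833 calls over the normal lung (TI-KM primaries, recurrences) became 1395 and 1079, and 465 between the TI-K sets became 304. In recurrences over TI-KM primaries the sign of H2-Eb1 and H2-DMb2 turned in the arrays that are neither high in 18S nor above 6000. No paired analysis was possible because the replicate numbers only order samples within a group. Not run: leaving out the normal lung, the block for comparisons with the normal lung or between TI-K sets, and high-18S fits for TI-K tumours, of which none is high. The 5 and 3 TI-K arrays, the single normal lung and probe sets that disagree limit what can be said of H2-Aa and H2-DMb2.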
